A study of Mus musculus with 10 samples.

Results

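The 54 genes described here encode the kinetochore, the mitotic spindle, its checkpoint and the machinery that condenses and separates chromosomes. They were taken by name, according to what their proteins do in mitosis, from the 46983 genes in the count table, where all 54 were found. The list was put together when diet differences in these same libraries, among them higher values of cell cycle genes, were already known. The diet differences of the members are therefore a description of the members and not independent evidence of a direction. The libraries came from hearts of wild-type male C57BL/6J mice that were 8 weeks old when they were assigned to a diet, 5 to the control diet with 11.6% of its energy as fat and 5 to the ketogenic diet with 89.5%. Each diet was eaten for 14 days, and no other treatment or allele separated the groups. CD31+ cells were pulled from digested heart tissue with antibody-coated magnetic beads, and each mouse gave 1 library of polyadenylated RNA. CD31 marks endothelial cells (ECs) but is also carried by platelets and many leukocytes, so the preparation is enriched for ECs and not purely endothelial.

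Mitosis is prepared in G2, when cyclin B accumulates and Cdk1 is switched on. Kinetochores are protein plates built on centromeric chromatin that hold the chromosomes to spindle microtubules, and the spindle checkpoint stops the cell from entering anaphase until every kinetochore is attached. Cdc20 and the anaphase-promoting complex then mark securin and cyclin B for destruction, separase opens the cohesin rings, and the sister chromatids part. Most of these genes are silent or nearly so in resting cells and are switched on together in late S phase and G2, through the DREAM and MuvB complexes, B-Myb and FoxM1. Cardiac ECs of adult mice rarely divide. A change in the number of dividing cells and a change in the RNA of each cell cannot be told apart in these libraries.

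Gene counts summed to between 10885154 and 12710861 per mouse, with totals that overlapped between the diets. Counts were scaled by edgeR's TMM factors, which lay between 0.988 and 1.01, and are given as normalised counts, that is, reads per library of average size. Of the members, 53 had enough reads for the filter and were tested among 15949 genes in all by edgeR's quasi-likelihood test, with Benjamini-Hochberg adjustment over all of them. Endothelial markers were abundant in every mouse, with a summed RPKM (reads per kilobase of gene, scaled to the total of the mouse) of the 8 markers between 613 and 694 over both diets, and no marker list for another cell type was empty.

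Most mitotic genes had higher values on the ketogenic diet, and 1 of them, Mad2l1, passed the adjusted test of edgeR. Of the 53 tested members, 50 had a log2 fold change above 0 and 3 below 0, against 48.6% above 0 among all tested genes. The median log2 fold change was 0.47 over the members and −0.0057 over all tested genes. Mad2l1 rose at an adjusted p under 0.05, and no member fell at that limit, where 1.34% of all tested genes were called and 0.809% were called higher. DESeq2, run as an alternative, called 8 members, 8 of them higher, and 5.16% of all genes to which it gave an adjusted p. At an unadjusted p under 0.05 there were 22 members, 22 of them higher on the ketogenic diet, and 8.57% of all tested genes were higher at this limit. In either direction, 17.8% of all tested genes were under it. Normalised counts did not overlap between the diets in 6 members, all higher on the ketogenic diet, against 2.4% of all tested genes in this direction and 1.94% in the other. The percentages over all genes are background, and nothing is read from them about the list, which was made with this contrast known.

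The members also differed widely between mice of the same diet. Control mouse 4 had the lowest value of all 10 mice in 41 of the 53 tested members, and it was below every other control mouse in 45. Its median member stood 0.531 times the mean of the 10 mice on the log scale, while the other 4 control mice lay between 0.867 and 1.05 times that mean. At the other end, ketogenic mouse 4 was the highest of all mice in 20 members and ketogenic mouse 1 in 17. Their median members were 1.42 and 1.33 times the mean. Ketogenic mouse 3 was the lowest of its diet in 35 members and, at 0.947 times the mean, lay within the range of the control mice. All 5 ketogenic mice were above every control mouse in 6 members, 4 of them in 13 members, 3 in 11, 2 in 10, 1 in 7 and none in 6.

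**Figure D1:**
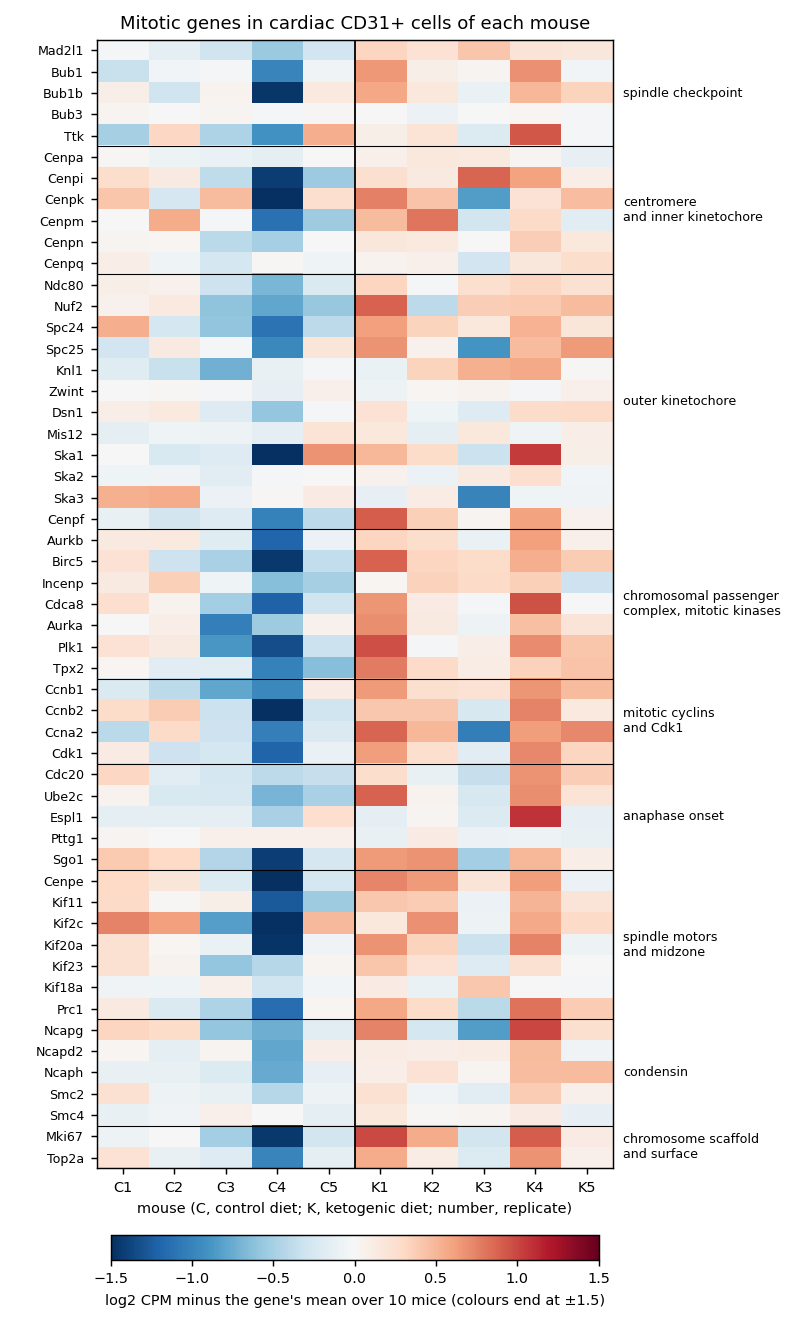
Each row is a tested member and each column a mouse (C, control diet; K, ketogenic diet), and the colour gives log2 CPM (library-scaled counts) minus the gene's mean over the 10 mice, with colours ending at ±1.5. The column of control mouse 4 is the lowest of all 10 in 41 of the 53 rows, and ketogenic mice 1 and 4 hold the highest value in 17 and 20 rows.

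A score for each mouse, the mean over the 53 members of the z-scores of log2 CPM, was 0.15, −0.031, −0.55, −1.65 and −0.18 in control mice 1 to 5 and 0.78, 0.31, −0.076, 0.99 and 0.26 in ketogenic mice 1 to 5. The ranges overlapped only through ketogenic mouse 3, which scored below control mice 1 and 2. The control mice averaged −0.45 ± 0.718 (SD over 5 mice), and for the ketogenic mice the average was 0.45 ± 0.427. Without control mouse 4, the median log2 fold change of the members was 0.31 in place of 0.47. Of the 54 members then tested, 18 had an unadjusted p under 0.05, 17 of them higher on the ketogenic diet. Without ketogenic mouse 4, the median was 0.37 and 13 members were higher at that limit. When both were left out, the median was 0.21, 47 of 53 members had a log2 fold change above 0, and none passed the adjusted test, while 9 had an unadjusted p under 0.05. In that fit 73 of all 16032 tested genes passed the adjusted test of edgeR. The share of all genes at the unadjusted limit was not counted in the fits with mice left out. The direction of the median was the same with each mouse left out in turn, and its size lay between 0.31 and 0.57.

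The spindle checkpoint held the only member that passed the test. Mad2l1 encodes Mad2, the protein that unattached kinetochores convert into an inhibitor of Cdc20. Its gene lies on chromosome 6 from 66535390 to 66547220 of GRCm38 (GENCODE M21), and 6.01% of its transcript matches that of Gm42430 at 95% identity or more. Its normalised counts were 271, 252, 224, 187 and 226 in control mice 1 to 5 and 345, 321, 369, 316 and 312 in ketogenic mice 1 to 5. The lowest ketogenic value was above the highest control value, and control mouse 4 was the lowest here too, although by less than in most members. Mad2l1 rose from 232 ± 31.7 to 333 ± 24.3 (SD, n = 5 mice per diet), a difference of 0.52 ± 0.101 (SE) on the log2 scale with an adjusted p of 0.0343 from edgeR. The within-diet SD of its log2 CPM, 0.159, was small beside that of Mki67, 0.561. The call did not hold when any 1 of control mice 2, 3 and 5 or ketogenic mice 1, 3 and 4 was left out, where the adjusted p from edgeR lay between 0.0573 and 0.0786, with a log2 fold change between 0.45 and 0.58 over all 10 omissions.

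The checkpoint kinases had estimates above 0 with larger standard errors than Mad2l1. Bub1, which recruits the other checkpoint proteins to the kinetochore, had normalised counts of 50.8, 62.9, 63.1, 31.6 and 62.4 in the control mice and 103, 69.0, 66.8, 105 and 62.9 in the ketogenic mice, in the order of their numbers. Ketogenic mice 1 and 4 stood far above the other 8, and the remaining ketogenic values were close to those of control mice 2, 3 and 5 (log2 fold change 0.58, standard error 0.222, adjusted p = 0.199, edgeR). Bub1b, which encodes BubR1, the Bub1 relative within the mitotic checkpoint complex, ranged from 86.3 to 266 on the control diet and from 224 to 359 on the ketogenic diet, with a log2 fold change of 0.51 and a standard error of 0.247. Ttk, the Mps1 kinase at the top of the checkpoint, had between 21 and 87 reads per mouse and a log2 fold change of 0.36 with a standard error of 0.313. Bub3, the partner that docks Bub1 and BubR1 on the kinetochore and that also has roles outside mitosis, had an estimate near 0. It was by far the most abundant member per gene length, with a mean RPKM of 90.5 beside 0.952 for Bub1. Its normalised counts of 2229, 2171, 2229.7, 2144 and 2194 on the control diet and 2157, 2048, 2183, 2207 and 2131 on the ketogenic diet differed little between mice or diets (log2 fold change −0.032, standard error 0.0313, adjusted p = 0.626, edgeR). Its reads reached 56.9% of the start positions its length allows on both strands, and whether reads with the same start had been merged, which would compress high counts, is not given in the sources used here. With counts corrected for such merging, its log2 fold change was −0.018. The next highest member by this share was Pttg1, at 15.7%. The share uses the length that the deposited RPKM implies, which for Cenpa (10171 bases) is more than its gene spans. The shares of Pttg1 and other members may therefore be too low and the correction too small.

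**Figure D2:**
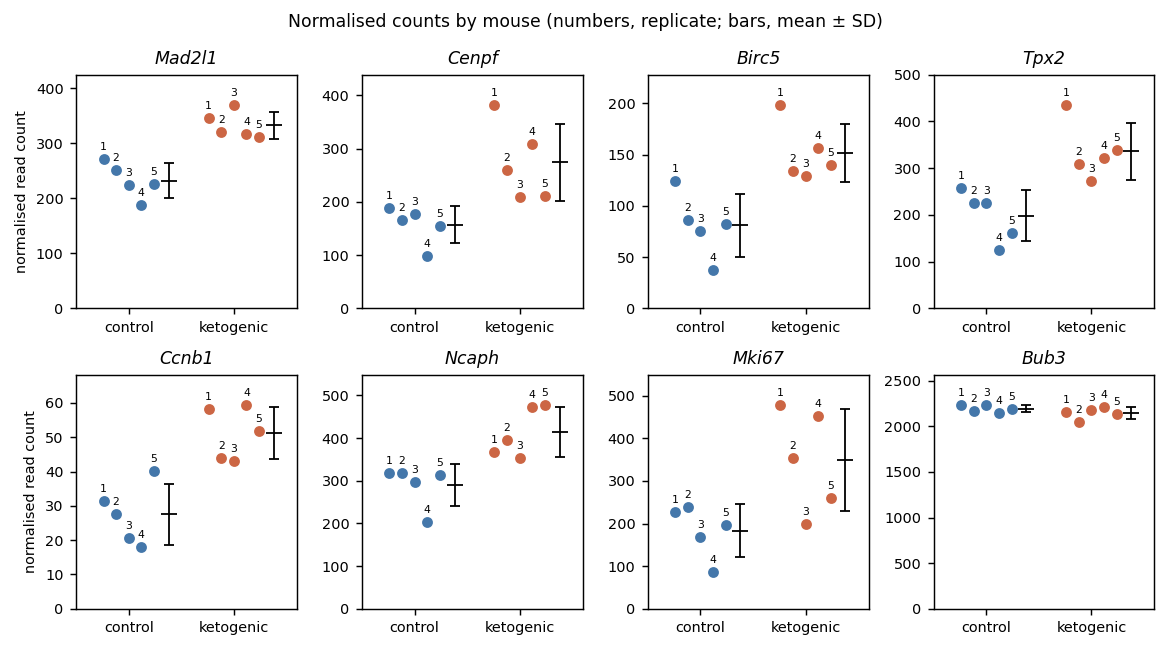
Normalised read counts of 8 members are plotted for each mouse (points, numbered by replicate) with the mean ± SD of the 5 mice of a diet (bars), on axes that start at 0. In the first 6 panels every ketogenic mouse lies above every control mouse, in Mki67 ketogenic mouse 3 lies among the controls, and Bub3 stays between 2048 and 2229.7 throughout.

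Promoters of the 4 members with the smallest p-values that have a RefSeq entry are shown, because genes of late cell cycle are known to share promoter elements. The mice did not rank alike in them, since ketogenic mouse 3 was the highest of its diet in Mad2l1 and the lowest in the other 3. Each is a window of 300 bases, 250 before and 50 after the RefSeq start on GRCm38.p6, written 5′ to 3′ along the gene. The capitals mark the letters of the cell cycle homology region (CHR, TTTGAA or its variant TTTAAA), which binds the MuvB core of DREAM, of the CCAAT box bound by NF-Y, and of an E2F site (GCGGGAA), each searched on both strands. None of these letters overlapped in the windows shown. The window of Mad2l1 is chr6:66534971-66535270 on the + strand, and those of Cenpf, chr1:189688037-189688336, Ccnb1, chr13:100786437-100786736, and Ncaph, chr2:127133905-127134204, are on the − strand.
Mad2l1: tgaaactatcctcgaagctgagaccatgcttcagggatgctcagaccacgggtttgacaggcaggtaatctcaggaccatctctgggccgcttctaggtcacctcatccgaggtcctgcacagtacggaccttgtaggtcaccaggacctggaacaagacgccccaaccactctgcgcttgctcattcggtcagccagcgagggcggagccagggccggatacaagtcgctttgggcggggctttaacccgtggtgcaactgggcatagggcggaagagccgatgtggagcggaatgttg
Cenpf: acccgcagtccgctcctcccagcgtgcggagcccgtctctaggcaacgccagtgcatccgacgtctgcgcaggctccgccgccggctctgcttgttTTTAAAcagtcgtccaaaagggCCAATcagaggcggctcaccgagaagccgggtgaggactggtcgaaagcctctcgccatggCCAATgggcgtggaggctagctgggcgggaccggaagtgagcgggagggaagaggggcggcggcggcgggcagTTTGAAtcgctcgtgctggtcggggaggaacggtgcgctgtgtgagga
Ccnb1: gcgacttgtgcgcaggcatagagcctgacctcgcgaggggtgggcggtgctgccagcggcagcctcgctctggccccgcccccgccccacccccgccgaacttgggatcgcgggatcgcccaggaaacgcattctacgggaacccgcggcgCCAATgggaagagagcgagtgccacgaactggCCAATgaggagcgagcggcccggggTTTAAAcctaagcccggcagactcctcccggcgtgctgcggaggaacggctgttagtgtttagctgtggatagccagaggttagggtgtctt
Ncaph: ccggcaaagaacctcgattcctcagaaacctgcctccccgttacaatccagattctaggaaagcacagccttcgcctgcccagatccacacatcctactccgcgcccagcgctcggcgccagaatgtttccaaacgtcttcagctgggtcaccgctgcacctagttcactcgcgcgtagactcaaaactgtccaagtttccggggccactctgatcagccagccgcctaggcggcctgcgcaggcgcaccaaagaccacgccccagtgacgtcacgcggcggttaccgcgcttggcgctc

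In the Cenpf window the CHR began 2 bases after the start, its variant 154 bases before it, and CCAAT boxes 132 and 71 bases before it. In that of Ccnb1 the CHR variant began 42 bases before the start and CCAAT boxes 99 and 67 bases before it. The windows of Mad2l1 and Ncaph held none of these letters, and the RefSeq start of Mad2l1 lies upstream of the start of the gene in GENCODE. Among the 50 windows of the 46 members with an entry, 29 (58%) held TTTGAA, 10 (20%) TTTAAA, 39 (78%) CCAAT and 6 (12%) GCGGGAA. Of all 32851 RefSeq windows of this length, 17.9% held TTTGAA, 13.2% TTTAAA, 37.4% CCAAT and 4.6% GCGGGAA. A CHR in either form together with a CCAAT box was found in 56% of the members' windows and 10.7% of all windows. A match is a run of letters and does not show that a factor binds there.

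The centromere and inner kinetochore genes had small to moderate estimates. All 6 tested genes of this group had a log2 fold change above 0 (median 0.32), none passed the adjusted test of edgeR and 2 had an unadjusted p under 0.05. Cenpa, the histone H3 variant that marks the centromere, had counts of 387, 362, 357, 346 and 385 on the control diet and 403, 429, 422, 394 and 351 on the ketogenic diet. Ketogenic mice 1 to 4 were above every control mouse, and the difference was small, 0.12 on the log2 scale with a standard error of 0.0721. Cenpi, a subunit of the constitutive centromere network, had the largest estimate of the group. Its counts were 75.6, 68.6, 47.6, 22.1 and 42.2 and 74.0, 69.0, 116, 96.2 and 67.4 in the same order, so that ketogenic mouse 3, low for most members, was here the highest of all (log2 fold change 0.72, standard error 0.284, adjusted p = 0.211, edgeR). Cenpq, with the highest RPKM of the group, 5.75, had the smallest estimate, 0.12. Its exons share 95 bases with those of Mut, and the library kit does not record the strand. Cenpm, Cenpn and Cenpk had estimates of 0.41, 0.32 and 0.31, the last from between 3 and 31 reads per mouse. Cenph, with between 3 and 18 reads, did not pass the filter. Its counts of 8.64, 17.2, 3.11, 3.16 and 5.03 on the control diet and 16.8, 10.5, 9.82, 10.7 and 7.29 on the ketogenic diet overlapped.

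In the outer kinetochore, which makes the contact with microtubules, 11 of 12 genes had a log2 fold change above 0 (median 0.42), none passed the adjusted test of edgeR and 5 had an unadjusted p under 0.05. Cenpf, a large coiled-coil protein of the kinetochore corona that accumulates in G2, lies on chromosome 1 from 189640606 to 189688086. Its counts were 188, 167, 177, 99 and 154 in the control mice and 382, 260.3, 209, 309 and 211 in the ketogenic mice. The diets did not overlap, but the gap between control mouse 1 and ketogenic mouse 3 was small beside the range within the ketogenic group (log2 fold change 0.80, standard error 0.199, adjusted p = 0.0705, edgeR). The 4 subunits of the Ndc80 complex, which binds the microtubule itself, had estimates of 0.41 (Ndc80), 0.72 (Nuf2), 0.66 (Spc24) and 0.44 (Spc25). Ndc80 ranged from 94.7 to 163 on the control diet and from 151 to 192 on the ketogenic diet. Over 22.9% of its length its transcript matches those of other annotated genes at 95% identity or more. Knl1, the scaffold on which Bub1 and BubR1 assemble, had an estimate of 0.56 and was highest in ketogenic mice 3 and 4. In Knl1, control mouse 4 was not the lowest, with a count of 54.7 beside 35.2 in control mouse 3.

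The remaining outer kinetochore genes ranged from −0.44 (Ska3) to 0.54 (Ska1). Zwint, which links Knl1 to the RZZ complex and is also abundant in non-dividing cells such as neurons, had a mean RPKM of 21.9, the third highest of all members. Its counts of 1610.3, 1621, 1571, 1473 and 1688 and 1516, 1629, 1666, 1572 and 1685 on the control and ketogenic diets overlapped, and its log2 fold change of 0.019 turned to −0.0075 without control mouse 4. Mis12 and Dsn1, subunits of the complex that joins the inner to the outer plate, had estimates of 0.084 and 0.21. Ska3 is a subunit of the Ska complex, which follows shortening microtubules. Its counts were 203, 206, 131, 141 and 152 on the control diet and 128, 151, 68.7, 134 and 135 on the ketogenic diet, and ketogenic mouse 3 was the lowest of all mice (log2 fold change −0.44, standard error 0.202, adjusted p = 0.286, edgeR). Without that mouse, the log2 fold change was −0.28. With the cardiomyocyte marker score of each mouse as a covariate, its log2 fold change was 0.070. The other subunits, Ska1 and Ska2, had estimates of 0.54 and 0.13, with standard errors of 0.405 and 0.0746.

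The chromosomal passenger complex and the mitotic kinases had a median log2 fold change of 0.67, with all 7 genes above 0, none past the adjusted test of edgeR and 5 at an unadjusted p under 0.05. Birc5, on chromosome 11 from 117849251 to 117855743, encodes survivin, the subunit that brings Aurora B to the centromere. Its counts were 124, 85.8, 75.6, 37.9 and 82.5 in the control mice and 198, 134, 129.6, 156 and 139 in the ketogenic mice. Every ketogenic mouse was above every control mouse, though control mouse 1 came close to ketogenic mouse 3, and control mouse 4 had less than any other (log2 fold change 0.90, standard error 0.242, adjusted p = 0.0882, edgeR). Tpx2, on chromosome 2 from 152847964 to 152895321, which activates Aurora A and nucleates spindle microtubules, had counts of 257, 226, 226, 124 and 161 on the control diet and 435, 308, 273, 323 and 339.9 on the ketogenic diet, again without overlap (log2 fold change 0.76, standard error 0.187, adjusted p = 0.0699, edgeR). Plk1, the Polo kinase that drives centrosome maturation, and Cdca8, which encodes borealin, overlapped between the diets at estimates of 0.82 and 0.67. Both share exon bases with a neighbouring gene, 156 bases with Gm44985 and 232 with 9930104L06Rik. Aurka, Aurora A itself, had the highest RPKM of the group, 3.22, and counts of 149, 161, 72.5, 103 and 157 and 244, 165, 142, 205 and 171 (log2 fold change 0.53, standard error 0.217, adjusted p = 0.227, edgeR). Here control mouse 3 and not mouse 4 was the lowest. Aurkb, the kinase of the passenger complex, had an estimate of 0.42, and Incenp, its scaffold, the smallest of the group, 0.26 with a standard error of 0.205. Without control mouse 2, 4 or 5, Incenp had 0.41, 0.15 or 0.17.

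The mitotic cyclins and Cdk1 had the largest median of the groups with more than 2 genes, 0.73, with all 4 above 0, none past the adjusted test of edgeR and 3 at an unadjusted p under 0.05. Ccnb1, on chromosome 13 from 100778650 to 100786570, encodes cyclin B1, the partner with which Cdk1 drives entry into mitosis. It had normalised counts of 31.3, 27.6, 20.7, 17.9 and 40.2 on the control diet and 58.2, 43.9, 43.2, 59.3 and 51.9 on the ketogenic diet. The diets did not overlap, and the values are small (log2 fold change 0.89, standard error 0.224, adjusted p = 0.0721, edgeR). The transcript of Ccnb1 matches those of 4 other annotated genes at 95% identity or more over 52.0% of its length, Ccnb1-ps among them, so that reads may have been lost or shared. Without control mouse 5, the control with the most Ccnb1, its adjusted p was 0.0490 from edgeR, with a log2 fold change of 1.07. Cdk1 itself ranged from 111 to 279.7 on the control diet and from 231 to 426 on the ketogenic diet, and 4 of 5 ketogenic mice were above every control mouse (log2 fold change 0.68, standard error 0.221, adjusted p = 0.142, edgeR). Ccna2, cyclin A2, which acts in S phase and G2, had an estimate of 0.77, and its exons share 510 bases with those of Exosc9. In Ccna2, ketogenic mouse 3 had the lowest of all 10 counts, 16.7, just below control mouse 4 with 16.8. Ccnb2, cyclin B2, was the most abundant of the group per gene length, at an RPKM of 11.9. Its counts of 241, 259, 158, 68.4 and 159.9 and 263, 262, 167, 333 and 219.6 overlapped, with control mouse 4 far below the rest (log2 fold change 0.49, standard error 0.291, adjusted p = 0.408, edgeR), and without that mouse the log2 fold change was 0.28.

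Among the genes of anaphase onset, 4 of 5 had an estimate above 0 (median 0.37), none passed the adjusted test of edgeR and 1 had an unadjusted p under 0.05. Ube2c, the ubiquitin-conjugating enzyme that serves the anaphase-promoting complex, had counts of 106, 86.8, 85.9, 62.1 and 72.4 on the control diet and 190.4, 106, 86.4, 167 and 118 on the ketogenic diet. Ketogenic mice 1, 4 and 5 were above all controls, mouse 2 was level with control mouse 1, and mouse 3 lay lower (log2 fold change 0.69, standard error 0.221, adjusted p = 0.138, edgeR). Its exons share 592 bases with those of Tnnc2, a troponin of skeletal muscle. Cdc20, the target of the checkpoint, and Espl1, separase, had estimates of 0.37 and 0.34, and the highest Espl1 count, 216 in ketogenic mouse 4, stood alone above a range of 71.6 to 121 for the other 9. Sgo1, shugoshin, which protects centromeric cohesin, had an estimate of 0.51. Pttg1 encodes securin, the inhibitor of separase, and had the second highest RPKM of the members, 25.6. Its counts were 1482, 1451, 1515, 1516 and 1526 on the control diet and 1333, 1572, 1356, 1365 and 1331 on the ketogenic diet, so that ketogenic mouse 2 was above every control mouse and the other 4 were below every one of them (log2 fold change −0.11, standard error 0.0490, adjusted p = 0.281, edgeR). Without ketogenic mouse 2, the log2 fold change was −0.15 and the adjusted p 0.0399 from edgeR.

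The spindle motors and midzone proteins all had estimates above 0 (7 of 7, median 0.49), none passed the adjusted test of edgeR, 1 had an unadjusted p under 0.05, and the diets overlapped in each. Cenpe, the motor that carries chromosomes to the spindle equator, had counts of 199.8, 183, 139.7, 35.8 and 135 on the control diet and 269, 252, 185, 251 and 152 on the ketogenic diet. Control mouse 4 had the lowest value by far, and ketogenic mice 3 and 5 lay within the control range (log2 fold change 0.67, standard error 0.331, adjusted p = 0.311, edgeR). Without control mouse 4, its log2 fold change was 0.43. Kif11, the motor that pushes the spindle poles apart, and Kif20a, a midzone kinesin, had estimates of 0.49 and 0.50. The exons of Kif20a share 1271 bases with those of Cdc23. Prc1, which bundles the microtubules of the midzone, had an estimate of 0.65, and its exons share 911 bases with those of Rccd1. Kif2c, a microtubule depolymerase at centromeres, varied most within the diets of all members, from 9.47 in control mouse 4 to 118 in control mouse 1, and had an estimate of 0.26 with a standard error of 0.453. Kif23, which builds the midbody with its partner in cytokinesis, had the highest RPKM of the group, 9.59, and an estimate of 0.26 (adjusted p = 0.427, edgeR), or 0.16 without control mouse 3. Kif18a, which dampens chromosome movements, had the lowest estimate, 0.16 (adjusted p = 0.505, edgeR), or 0.076 without ketogenic mouse 3.

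Condensin, the ring complex that compacts mitotic chromosomes, had a median of 0.28, with all 5 genes above 0, none past the adjusted test of edgeR and 1 at an unadjusted p under 0.05. Ncaph, the kleisin of condensin I, lies on chromosome 2 from 127103809 to 127133954 and had counts of 318, 317, 296, 202 and 314 on the control diet and 367, 396, 352, 473 and 477 on the ketogenic diet. The diets did not overlap, and control mouse 4 stood well below the other controls, which were between 296 and 318 (log2 fold change 0.51, standard error 0.134, adjusted p = 0.0805, edgeR). Ncapg and Ncapd2, the other subunits specific to condensin I, had estimates of 0.44 and 0.28 (standard errors 0.332 and 0.150). The exons of Ncapg share 944 bases with those of Lcorl. Smc2 and Smc4, the ATPase core that condensin I and II share, had estimates of 0.19 and 0.084. Smc4 was the most abundant of the group, at an RPKM of 9.52, and its counts of 1230.2, 1284, 1408, 1341 and 1216 and 1483, 1348, 1371, 1451 and 1218 overlapped (log2 fold change 0.084, standard error 0.0601, adjusted p = 0.492, edgeR).

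Mki67 and Top2a are the transcripts most used to count cycling cells. Mki67 encodes Ki-67, which coats mitotic chromosomes, and had counts of 228, 239, 168, 86.3 and 197 on the control diet and 478, 354, 198, 452 and 261 on the ketogenic diet. Its log2 fold change of 0.92 was the highest of all members, with a standard error of 0.283 (adjusted p = 0.125, edgeR). Ketogenic mice 1, 2, 4 and 5 were above every control mouse, and mouse 3 lay below control mice 1 and 2. Top2a, the topoisomerase that untangles sister chromatids, had counts of 682, 541, 512, 293 and 531 and 859, 630.4, 509, 937 and 616 in the same order (log2 fold change 0.47, standard error 0.209, adjusted p = 0.261, edgeR). As for Mki67, ketogenic mice 1 and 4 were at the top and control mouse 4 at the bottom, but control mouse 1 was above ketogenic mice 2, 3 and 5.

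**Figure D3:**
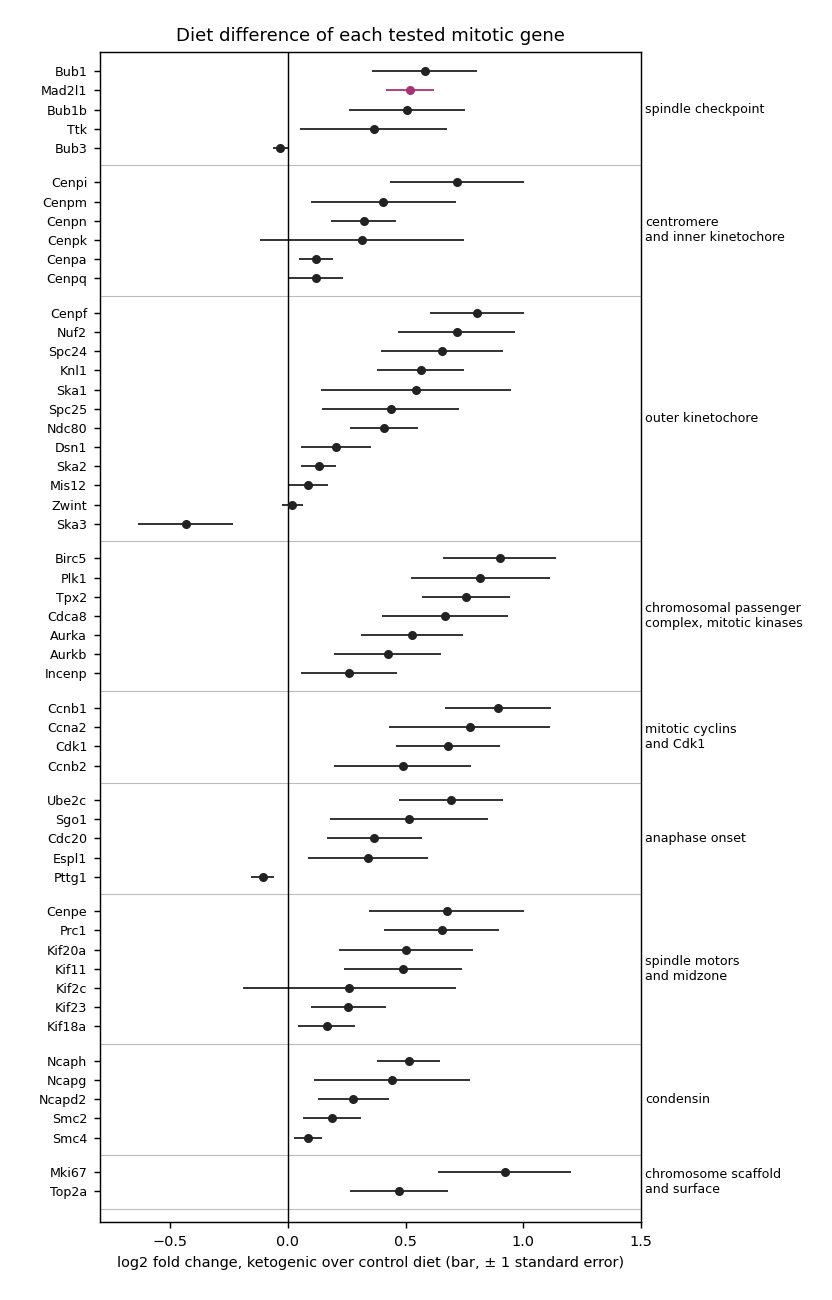
The log2 fold change of each tested member (ketogenic over control diet, points) is shown with ± 1 standard error (bars), grouped by the part of the mitotic machinery it belongs to. Of the 53 genes, 50 lie above 0. Mad2l1 (coloured), the only gene past the adjusted test, has a narrower bar than Bub1 and Bub1b beside it. Bub3 and Zwint sit near 0, and Pttg1 lies at −0.11 with a standard error of 0.0490.

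Level and diet difference were set side by side. Mean levels ran from an RPKM of 0.362 (Knl1) to 90.5 (Bub3). After Bub3, Pttg1 and Zwint came Ccnb2 (11.9), Mis12 (10.7), Kif23 (9.59) and Smc4 (9.52), and 12 of the 54 were below an RPKM of 1. The 10 members with the highest RPKM had a median log2 fold change of 0.11, and the 43 other tested members one of 0.51. This split was made after the values were seen and is given without a test. The 3 most abundant also varied least between mice of a diet, with within-diet SDs of log2 CPM of 0.0341 (Bub3), 0.0677 (Zwint) and 0.0747 (Pttg1). Ccnb2, the next in level, had a log2 fold change of 0.49 and an SD of 0.592, and Kif2c, the most variable, 1.04. Cenpa and Mad2l1 were steady at a much lower RPKM, with SDs of 0.0942 and 0.159 at 3.23 and 2.24 RPKM. In reads, Cenpa had 329 to 430 per mouse and Ccnb2 65 to 343. The length that the deposited RPKM implies for Cenpa, 10171 bases, is more than its gene spans. Ranks by RPKM between genes, and the split above, are therefore uncertain.

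**Figure D4:**
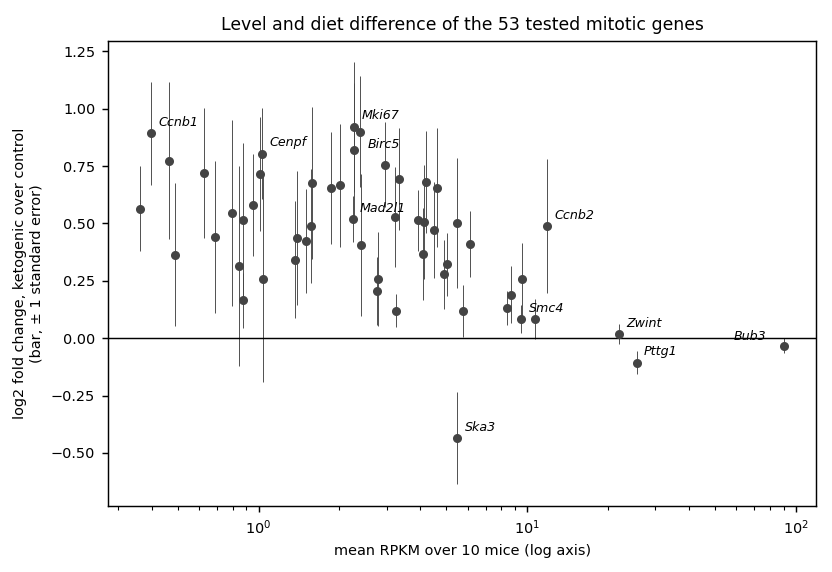
The mean RPKM over 10 mice (horizontal log axis) is plotted against the log2 fold change between the diets with ± 1 standard error for the 53 tested members. The 3 most abundant, Bub3, Pttg1 and Zwint, lie between −0.11 and 0.019, and the highest point, at 0.92, is Mki67 with an RPKM of 2.27.

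Mitotic genes outside the list were looked at for the same contrast. Of 54 tested among 55 other mitotic genes, 45 had a log2 fold change above 0 (median 0.36), and none passed the adjusted test (edgeR), while 16 had an unadjusted p under 0.05, all of them higher on the ketogenic diet. Of all tested genes, 48.6% were above 0 and 8.57% were higher at that limit. This list too was chosen with earlier results of these data known, so its values are a description. Cdc25c, the phosphatase that activates Cdk1, had the largest estimate, 1.12 (standard error 0.306, adjusted p = 0.0917, edgeR), and Wee1, the kinase that opposes it, the lowest, −0.18. Their scores were 0.21, −0.036, −0.55, −1.19 and −0.19 in the control mice and 0.75, 0.26, −0.38, 0.71 and 0.41 in the ketogenic mice. Control mouse 4 was again at the bottom, ketogenic mice 1 and 4 at the top, and ketogenic mouse 3 among the controls.

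The machinery that acts on the same chromosomes but is present outside mitosis had medians closer to 0. The 16 genes of the anaphase-promoting complex had a median of 0.045, between 0.49 for its inhibitor Fbxo5 and −0.37 for Anapc15. The 12 cohesin genes had one of 0.057, between 0.36 for the S phase acetyltransferase Esco2 and −0.15 for the loader subunit Mau2. Above 0 were 12 of the 16 and 9 of the 12, against 48.6% of all tested genes. None of these 28 genes passed the adjusted test (edgeR), and 6 had an unadjusted p under 0.05, in each list 2 higher and 1 lower. Of all tested genes, 17.8% were under that limit in either direction. The 20 regulators that act on mitotic promoters, among them B-Myb, the MuvB core and NF-Y, had a median of 0.045, with 15 above 0. Within them E2f8 had the largest estimate, 0.61, and Tfdp2 the lowest, −0.19. None was past the adjusted test and 2 were at an unadjusted p under 0.05, 1 higher and 1 lower.

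DNA replication genes and G1 regulators, the nearest neighbours in the cell cycle, were set beside the members mouse by mouse. Of 40 replication genes, 31 had a log2 fold change above 0, with a median of 0.12, from −0.21 (Fen1) to 0.77 (Gins1), and none passed the adjusted test (edgeR), while 9 had an unadjusted p under 0.05. Their scores were −0.046, −0.21, −0.43, −0.52 and −0.21 in control mice 1 to 5 and 0.13, 0.099, 0.047, 0.77 and 0.37 in ketogenic mice 1 to 5. Here the diets did not overlap, and control mouse 4 was close to control mouse 3, unlike its place in the mitotic score. The 15 tested G1 cyclins, kinases and inhibitors had a median of −0.062, from −0.57 (the inhibitor p15) to 0.33 (the inhibitor p18). Again none was past the adjusted test, and 3 were at an unadjusted p under 0.05, 1 higher and 2 lower. The share of all tested genes at that limit was 17.8% in either direction, and 48.6% of them had a log2 fold change above 0. Control mouse 4 had the highest G1 score of its diet, 0.43. Whether the lists differ from each other was not tested.

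**Figure D5:**
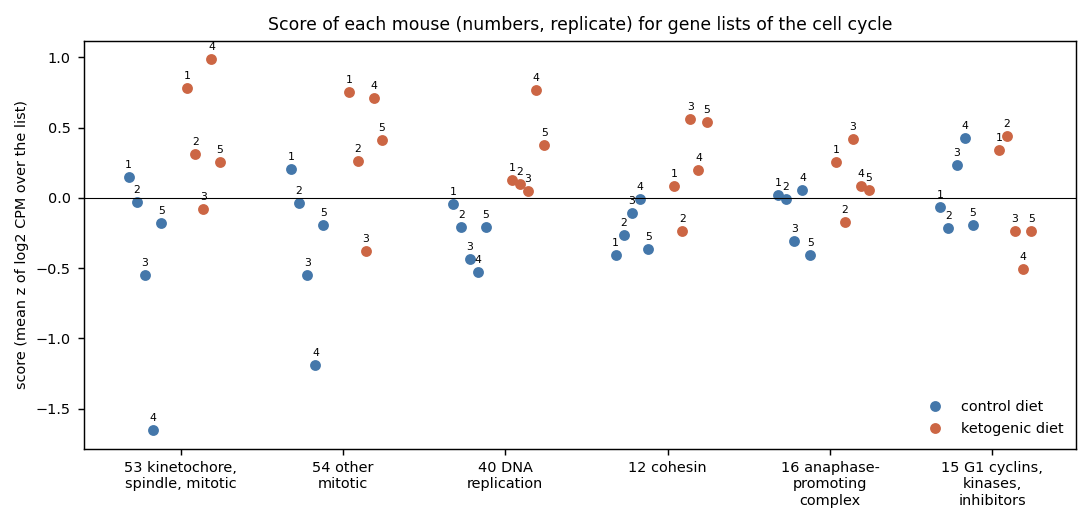
Scores (mean z-score of log2 CPM over the tested genes of a list) are shown for each mouse, numbered by replicate and coloured by diet, for the members and 5 other lists of cell cycle genes. Control mouse 4 lies at −1.65 for the members and at −0.52 for the replication genes, and the scores of G1 regulators are mixed between the diets.

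Markers of other cells also differed between the diets, and their part in the values above was not tested except where a fit is given. Over all tested genes, 17.8% had an unadjusted p under 0.05 in either direction. All 8 cardiomyocyte markers had a log2 fold change above 0 (median 0.34), none past the adjusted test and 6 at an unadjusted p under 0.05, and their summed RPKM was 155 to 186 on the control diet and 173 to 236 on the ketogenic diet. When this marker score was added as a term, the mitotic members had a median of 0.77 in place of 0.47, and 51 of 53 were above 0. None passed the adjusted test (edgeR), where 22 of all 15949 tested genes were called. An unadjusted p under 0.05 was found in 34 members, and the share of all genes at that limit was not counted in this fit. The score itself averaged −0.61 on the control diet and 0.61 on the ketogenic diet, so diet and score cannot be fully told apart. Of the 8 macrophage markers, 7 were below 0 (median −0.49), none past the adjusted test and 4 at an unadjusted p under 0.05, with a summed RPKM of 110.2 to 381 on the control diet and 95.2 to 191 on the ketogenic diet, with control mouse 1 at the top. With their score as a covariate, the median of the members was 0.58. The 4 platelet markers were all below 0 (median −0.75), none past the adjusted test and all 4 at an unadjusted p under 0.05, with a summed RPKM of 258 to 369 on the control diet and 125 to 287 on the ketogenic diet, and control mouse 4 had the highest and ketogenic mice 2 and 4 the lowest platelet scores. Of the 8 lymphocyte markers, 4 were above 0 and 4 below (median −0.11), from −0.53 for the B cell marker Ms4a1 to 0.96 for the T cell marker Cd8a. An unadjusted p under 0.05 was found in 4, all lower on the ketogenic diet. Of them Cd79a, a part of the B cell receptor, fell by 0.46 on the log2 scale (adjusted p = 0.0221, edgeR), and the list had a summed RPKM of 85.7 to 121 on the control diet and 75.9 to 88.9 on the ketogenic diet. With the lymphocyte and the endothelial scores as covariates, the medians of the members were 0.49 and 0.46. Fibroblast markers had a median of 0.15 (5 of 6 above 0), pericyte and smooth muscle markers −0.036 (1 of 6), erythroid markers −0.055 (2 of 6), neutrophil markers −0.24 (0 of 3 tested) and endothelial markers −0.032 (3 of 8). These 5 lists held no gene past the adjusted test (edgeR), and at an unadjusted p under 0.05 they held 1, an endothelial marker. Every gene of the 9 lists had reads. Which of the cells in these preparations carried the mitotic transcripts cannot be told from bulk counts.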

How the data were processed

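RNA from CD31+ heart cells of 10 mice was sequenced by the authors as 50-base single reads after SMART-Seq v4 amplification, which does not keep the strand. Per the labels, the processing tools were STAR 2.3 and HTSeq 0.6.0 on mm10, and the annotation release and any removal of duplicate reads are not given in the sources used here. The deposited counts are reads per gene without normalization, and the deposited RPKM values are those counts divided by a length per gene and the mouse's total. Worked back from counts and RPKM, that length can exceed the gene. For Cenpa it is 10171 bases, and the gene runs from 30666777 to 30674830 on chromosome 5. RPKM is therefore an uncertain guide to level between genes. In the counts, 43 genes reach over 90% of 1 read per start position and strand and 5 pass 100%, and the cause was not tested. These shares, and the correction for start positions, use the same length and may be too low. Of 46983 identifiers, 46488 matched GENCODE M21 without the version.

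The 2 diets were set against each other in edgeR 4.0.16 (R 4.3.3), with TMM, filterByExpr and the quasi-likelihood test, and a standard error is the log2 fold change over the square root of F. Log2 CPM used a prior count of 2. Alternatives were other scalings and filters, DESeq2 1.42.0, limma 3.58.1 on log2 RPKM, marker scores and the replicate number as terms, and omission of each mouse. Correction for start positions and joint omission of 2 mice were added after the data were seen. The tests were also run on simulated counts. Libraries of a diet differed by 4.57 to 9.83 times the counting variance, so none was a repeat.

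The members and lists were chosen with earlier results of these data known, and no p is given for a list or score. Named members are those past the adjusted test or without overlap, those with the highest RPKM and the extreme estimates of each group, Mki67, Top2a and untested members. Members named beyond these were chosen after their values were seen. Copies of member transcripts were sought with BLAST among GENCODE transcripts. Copies and shared exon bases are named for some members only.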

Additional observations from a re-analysis of the deposited data

Results flagged for a closer look

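For each named member and score, and for the total counts, the lowest and the highest mouse of a diet were tested for standing apart from the other 4. In 5 of 70 such sets of 5 values, the distance to the next mouse, as a share of the whole range, was above Dixon's limit of 0.71, where chance gives about 3.5, or 1 set in 20. The sets share mice, and scores share genes with single members, so the sets are not independent. Whether 5 is more than chance gives was not tested. Control mouse 4 accounted for 3 of the 5. It had the lowest Ncaph count, 202 (ratio 0.814), the lowest spindle checkpoint score, −1.71 (ratio 0.849), and the lowest condensin score, −1.5 (ratio 0.726). Ketogenic mouse 3 had the lowest Ska3 count of its diet, 68.7 (ratio 0.728). Ketogenic mouse 2 had the highest Pttg1 count of its diet, 1572 (ratio 0.858).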

How the results depend on the processing

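The number of members past the adjusted test was 1 under all other scalings, both other filters, both limma fits, the macrophage covariate and the start position correction. Under these settings 110 to 248 of all tested genes were called. With DESeq2 8 members were called, all higher on the ketogenic diet, and 5.16% of all genes with an adjusted p. No member was called with the replicate block, with the cardiomyocyte, lymphocyte or endothelial score as a covariate, and without control mouse 4 and ketogenic mouse 4 together. Calls over all tested genes fell too, from 213 in the main fit to 113, 22, 112, 106 and 73, in that order. With each mouse left out in turn, 0 to 2 members and 86 to 492 of all tested genes were called. The 2 members, both called without ketogenic mouse 2, were Mad2l1, higher on the ketogenic diet, and Pttg1, lower. Over the single omissions, the median log2 fold change was 0.31 to 0.57 and the score difference 0.79 to 1.02. The z-scores were taken anew over the mice that remained, so these score differences are not on the same scale. Under the replicate block, that is, with the replicate number as a term, 20 members had an unadjusted p under 0.05, 19 of them higher on the ketogenic diet. The share of all genes at that limit was not counted in this fit. The adjusted p of Mad2l1 from edgeR was 0.0595 in place of 0.0343. Same-numbered mice had r across genes of −0.13 to 0.094 for their deviations, and mice with different numbers −0.19 to 0.16. The labels do not say that the numbers pair mice, and these values cannot decide whether they do. The median stayed above 0 in every alternative, from 0.21 without both mice to 0.77 with the cardiomyocyte score. The score difference, 0.90 in the main fit, lay between 0.66 and 1.49, values that are not all on the same scale. On log2(RPKM + 1) the median was 0.27, a scale that understates low genes. DESeq2 gave no score of its own. Over the 23 tested members that the naming rule gives, 554 values under an alternative kept their direction and side of the threshold, 11 lost the call (all Mad2l1), 8 gained one, and 2 turned, Zwint (−0.0075 without control mouse 4, and up to 0.044 without ketogenic mouse 1) and Ska3 (0.070 with the cardiomyocyte score). Among the gained calls, that of Pttg1 was lower on the ketogenic diet. The causes of these changes were not tested. Cenpk had 3 to 31 reads per mouse and a standard error of 0.435, and Cenph, with fewer, did not pass the filter.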
